A study of Sus scrofa domesticus with 30 samples.

Results

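The antigen presentation genes described here are 31 genes of the major histocompatibility complex (SLA, swine leukocyte antigen) class I and class II pathways, chosen by their symbols. They comprise the class I heavy chains with beta-2-microglobulin and their peptide supply, the class II chains with their loading machinery, the transcriptional activators NLRC5 and CIITA, 6 co-signalling molecules and CD1D. They occupied 32 of 28224 gene models, because B2M was listed at 2 places, and all 32 lay above the deposited floor of 1 in at least 7 libraries, as did 16819 gene models in all. Endometrium, the lining of the uterus, came from about the middle of a uterine horn of 15 crossbred gilts (Landrace, Yorkshire, Duroc), which are young female pigs. All had shown at least 1 normal estrous cycle, were bred by artificial insemination with commercial maternal line semen and were slaughtered on pregnancy day 13. The groups were 7 gilts with a low and 8 with a high iCrit, assigned on their first postnatal day from the immunocrit, a blood measure of the immunoglobulin absorbed from colostrum. The comparison asks whether poor colostrum intake at birth is followed by differences in the adult pregnant uterus. The groups rest on a blood value and not on a controlled diet, and the labels give neither the litter nor the boar nor the number of conceptuses. Another low iCrit gilt was not pregnant and had been removed from the study.

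Each mRNA library came from 1 animal, and animals carry numbers within a group that only name them. Values are the authors' normalized values, scaled between libraries by an unstated method, so levels are compared between animals and never between genes. Estimated depth was 23.7 to 63.4 M reads per library (M, 1000000). Endometrial and epithelial genes were present in every library, and none of the 6 endometrium markers (HOXA10, HOXA11, FOXA2, PGR, ESR1, MSX1) was at the floor in any of them. A marker of trophoblast, the outer layer of the conceptus, stood apart in high iCrit animal 8, where PAG6, a pregnancy-associated glycoprotein, reached 7446 against 109 or less elsewhere. Whole endometrium mixes epithelium, stroma, vessels and leukocytes, so fewer cells of a type and less RNA per cell cannot be told apart in these values.

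Class I molecules are carried by most nucleated cells and show peptides from inside the cell to CD8 T cells. Proteasomes cut the peptides, TAP transporters move them into the endoplasmic reticulum, and tapasin helps to load them on a heavy chain paired with beta-2-microglobulin. Class II molecules are typical of professional antigen-presenting cells, though not limited to them, and show endosomal peptides to CD4 T cells. Interferon-gamma can induce class II in further cells through CIITA. NLRC5 is the related activator of the class I genes. Pig conceptuses secrete interferon-gamma and interferon-delta around the time of attachment, and class I and beta-2-microglobulin of the pig endometrium are known to respond during early pregnancy.

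No antigen presentation gene passed the test between low and high iCrit endometrium, limma on log2(value + 1) over all 16819 gene models with Benjamini-Hochberg adjustment. None of the 32 members was called at an adjusted p under 0.05, where 0% of all tested gene models were called. None of the 32 had an unadjusted p under 0.05 either, against 7.13% of all tested gene models (1200 of 16819), or 2.71% higher and 4.43% lower in low iCrit animals. The members' count became 2 without low 2 or without high 4, and 1 without high 3 or without high 6, still with none called. In low iCrit animals 8 members were higher and 24 lower, with a median log2 difference of -0.06, beside -0.01 over all tested gene models, of which 8131 were higher and 8688 lower. The median was -0.11 for the 12 class I gene models and -0.04 for the 13 class II genes. These medians were 0.01 and 0.02 with estimated reads as a covariate and -0.22 and -0.15 with library weights. The range of the low group overlapped that of the high group for all 32 members. The share over all tested gene models was not computed, so this count is not particular to the members. The animals within each group differed far more from one another than the groups did, and the members are described below in the order of their roles.

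**Figure D1:**
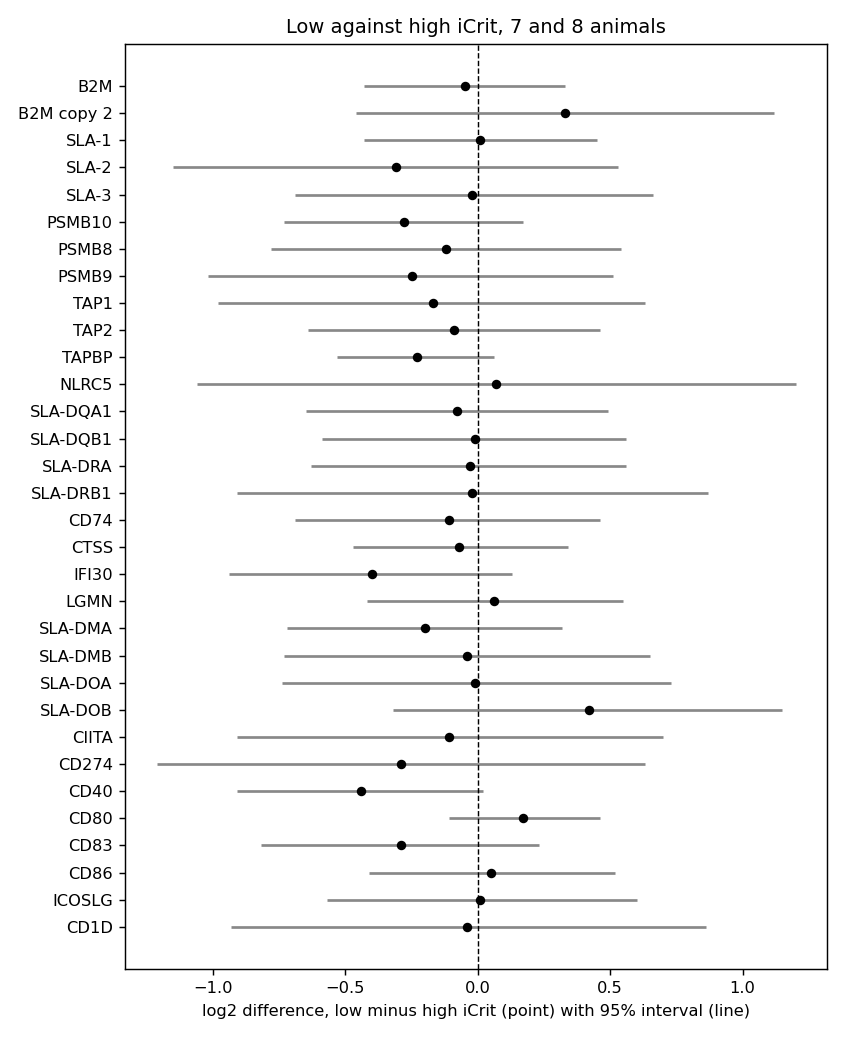
Log2 difference of each of the 32 gene models, low minus high iCrit (7 and 8 animals), with points for the limma estimate and lines for its 95% interval. Every interval includes 0, and the estimates run from -0.44 for CD40 to 0.42 for SLA-DOB.

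The class I heavy chains SLA-1, SLA-2 and SLA-3 carry the peptide, and they lie side by side on chromosome 7. SLA-1 ran from 26729 to 46874 in low iCrit animals (median 33632) and from 19166 to 57408 in high iCrit animals (median 36928). Its log2 difference, low minus high, was 0.01 ± 0.21 (SE, adjusted p = 0.995 by limma). SLA-3 ran from 32961 to 62731 (median 44932) in low and from 14826 to 92285 (median 48076) in high iCrit animals, with a log2 difference of -0.02 ± 0.32 (adjusted p = 0.995 by limma). Both genes thus had nearly the same average in the groups, with a wider range among the high iCrit animals. SLA-2 varied more, from 30702 to 123512 (median 44554) in low and from 24949 to 141307 (median 69448) in high iCrit animals. The groups differed by -0.31 ± 0.40 on the log2 scale (adjusted p = 0.899 by limma), a 95% interval from -1.15 to 0.53. The SLA-2 values of 4 animals stood above all others, at 141307 in high 1, 130188 in high 7, 123512 in low 7 and 84643 in high 5.

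These values carry a limit of the gene models. SLA-1 was listed at 22824137 to 22920154 on chromosome 7, a span that also holds SLA-5 and overlaps SLA-2, listed at 22916747 to 22959405. SLA-3, listed at 22938212 to 22942735, lies inside the span of SLA-2 on the same strand. Where a value is a whole multiple of the library's read step, it can be read as a count of whole reads. That held in 4 of 15 libraries for SLA-1 and in 1 of 15 each for SLA-2 and SLA-3, against 15 of 15 for TAP1, TAP2, PSMB8 and PSMB9. How reads that match several of these near-identical heavy chain genes were shared out was not stated, so the values of the 3 chains are uncertain.

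Beta-2-microglobulin (B2M), the invariant partner of every class I heavy chain, was steadier, from 20328 to 39582 (median 21991) in low and from 20035 to 37030 (median 23298) in high iCrit animals. On the log2 scale the groups differed by -0.05 ± 0.18 (adjusted p = 0.971 by limma). The highest B2M values were 39582 in low 2, 37030 in high 2, 34019 in high 7 and 31082 in low 1, and of these only high 7 was among the 4 animals highest in SLA-2. A second gene model of the same symbol stayed between 1 and 6.44, with 5 of 15 libraries at the floor. Its log2 difference of 0.33 ± 0.37 (adjusted p = 0.891 by limma) rests on values near the floor. Values of the first B2M model were whole reads in 0 of 15 libraries. Those of the second model were so in 12 of 15, and the values that were not lay at the floor.

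The genes that supply class I peptides all had lower mean log2 values in low iCrit animals, 6 of 6, with a median log2 difference of -0.20 and none called. That count was not kept with estimated reads as a covariate, where PSMB8 was 0.09, PSMB9 -0.01, TAP1 -0.02 and PSMB10 -0.10. By the mean of unlogged values, only TAP1 of these genes was higher in low iCrit animals, at 5559 against 5325. PSMB8, PSMB9 and PSMB10 encode the catalytic subunits of the immunoproteasome. PSMB8 ran from 1164 to 4873 (median 1366) in low and from 1125 to 3164 (median 1483) in high iCrit animals, with a log2 difference of -0.12 ± 0.31 (adjusted p = 0.961 by limma). PSMB9 ran from 535 to 3274 (median 806) in low and from 673 to 2131 (median 841) in high iCrit animals, with a log2 difference of -0.25 ± 0.36 (adjusted p = 0.914 by limma). In both genes 1 low iCrit animal, low 2, lay far above the other 6, which stood at 2037 or less for PSMB8 and 947 or less for PSMB9. PSMB10 was more even, from 737 to 1845 (median 1096) in low and from 937 to 1851 (median 1163) in high iCrit animals. The log2 difference of PSMB10 was -0.28 ± 0.21 (adjusted p = 0.821 by limma).

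TAP1, a subunit of the peptide transporter, had the widest range of the peptide supply genes. Low 2 stood at 18636, and the other low iCrit animals lay between 2732 and 4822. Among high iCrit animals the highest values were 12130 in high 2 and 7515 in high 8, and the other 6 lay between 3464 and 4673. The log2 difference was -0.17 ± 0.38 (adjusted p = 0.951 by limma), an estimate that became 0.02 without high 2. TAP2, the other subunit, showed the same order at the top, with 6068 in low 2, 4974 in high 2 and 3704 in high 8, and a log2 difference of -0.09 ± 0.26. Tapasin (TAPBP), which bridges transporter and heavy chain, did not have this pattern. TAPBP was highest in high 6 (14305) and high 2 (13633), and its log2 difference was -0.23 ± 0.14 (adjusted p = 0.759 by limma). The TAPBP model overlaps ZBTB22 on the same strand, and its values were whole reads in 1 of 15 libraries.

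NLRC5, the activator of class I genes, varied most of all members. Its values were 5647 in low 2, 2756 in high 2, 2525 in high 8 and 1579 in low 7, and between 331 and 932 in the other 11 animals. The highest value was 17.1 times the lowest, and the SD of log2 values within groups (1.15) lay at the 96.3th percentile of the 13594 genes with a mean of at least 50. The group medians were 746 in low and 867 in high iCrit animals, and the log2 difference of 0.07 ± 0.53 (adjusted p = 0.985 by limma) had a 95% interval from -1.06 to 1.2. It is the widest interval of the members, so the NLRC5 difference is poorly bounded by these animals.

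**Figure D2:**
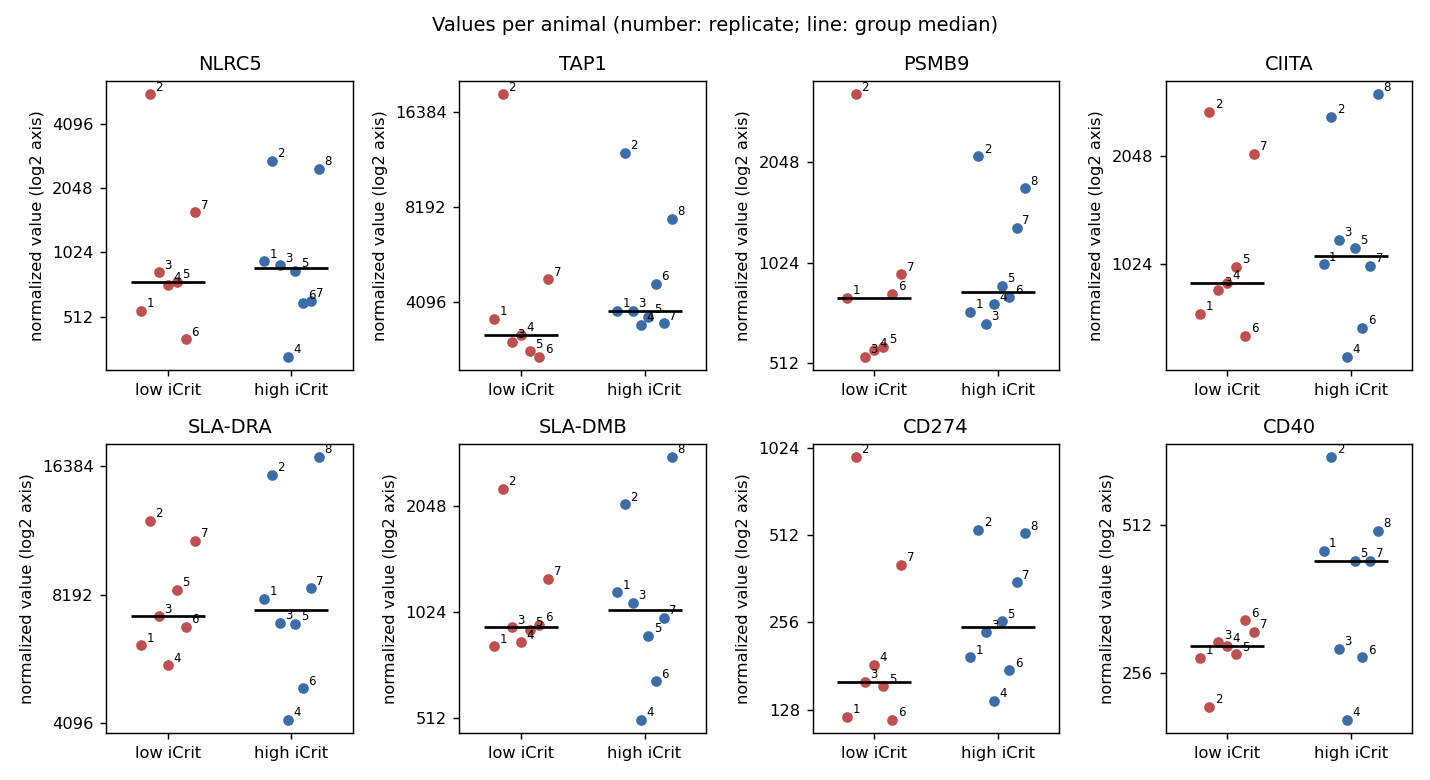
Normalized values on a log2 axis of 8 members in each low (red) and high (blue) iCrit animal, with the replicate number beside each point and a line at the group median. Low 2, high 2 and high 8 hold the 3 highest values of NLRC5, TAP1, PSMB9, CIITA, SLA-DRA, SLA-DMB and CD274, while CD40 is highest in high 2 and next to lowest in low 2.

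The class II surface chains differed less between the groups than between animals. SLA-DRA, the nearly invariant alpha chain of the DR heterodimer, ran from 5597 to 12178 (median 7290) in low and from 4170 to 17202 (median 7529) in high iCrit animals. The estimated log2 difference was -0.03 ± 0.28 (adjusted p = 0.987 by limma). The 4 highest SLA-DRA values were 17202 in high 8, 15596 in high 2, 12178 in low 2 and 10948 in low 7, which are the same 4 animals as for NLRC5. SLA-DQA1 ran from 3377 to 6361 (median 3878) in low and from 2330 to 9059 (median 4323) in high iCrit animals, with a log2 difference of -0.08 ± 0.27 (adjusted p = 0.965 by limma). SLA-DQB1 ran from 3407 to 6751 (median 4194) in low and from 2298 to 9842 (median 4404) in high iCrit animals, with a log2 difference of -0.01 ± 0.27 (adjusted p = 0.996 by limma). These DQ chains, which pair with each other, had the same 4 animals at the top.

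SLA-DRB1, the polymorphic partner of SLA-DRA, was more scattered. It ran from 573 to 4348 (median 1945) in low and from 993 to 5250 (median 1721) in high iCrit animals, with a log2 difference of -0.02 ± 0.42 (adjusted p = 0.996 by limma). High 8, high 2 and low 2 were again highest, at 5250, 4431 and 4348, but low 7 had only 1769 and low 3 had 2969. The lowest value, 573 in low 1, was not matched by SLA-DRA, which was 6232 in that animal. SLA-DRB1 values were whole reads in 7 of 15 libraries.

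The loading partners of class II followed the chains in part. CD74, the invariant chain that guards the class II groove until the endosome, ran from 10293 to 22138 (median 16278) in low and from 8769 to 33488 (median 14622) in high iCrit animals, with a log2 difference of -0.11 ± 0.27 (adjusted p = 0.957 by limma). SLA-DMA and SLA-DMB form the peptide editor, and SLA-DOA and SLA-DOB form its modulator. SLA-DMB was 2820 in high 8, 2290 in low 2, 2069 in high 2 and 1272 in low 7, and 1165 or less in the other animals. SLA-DOA reached 1113 in high 8 against a median of 332 in the high and 389 in the low iCrit group. SLA-DOB had the largest estimate above 0 among the members, 0.42 ± 0.35 (adjusted p = 0.837 by limma), with 104 to 342 (median 171) in low and 46.0 to 244 (median 133) in high iCrit animals. SLA-DMA and SLA-DMB lie within the span of BRD2 on the opposite strand, and the labels do not say that the library kit kept strand.

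The endosomal enzymes of the list followed the chains in part or not at all. Cathepsin S (CTSS), which cuts CD74, ran from 1328 to 3737 over all animals. Like the chains it was highest in high 2 (3737) and high 8 (3646) and lowest in high 4 (1328), but low 2 had 2309 and low 7 had 2521. IFI30, the thiol reductase that opens disulfide bonds of antigens, ran from 1916 to 4235 (median 3151) in low and from 1672 to 5577 (median 4383) in high iCrit animals. Its log2 difference of -0.40 ± 0.25 (adjusted p = 0.775 by limma) was among the 4 smallest p of members lower in low iCrit animals. Low 2, which was among the highest for the class II chains, had the lowest IFI30 value of its group. Legumain (LGMN), another antigen-processing protease, was highest in low 6, at 13594, and lowest in low 2, at 3234, with a log2 difference of 0.06 ± 0.23 (adjusted p = 0.968 by limma).

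CIITA, the activator of class II genes, ran from 645 to 2711 (median 907) in low and from 564 to 3032 (median 1077) in high iCrit animals. Its log2 difference was -0.11 ± 0.38 (adjusted p = 0.968 by limma). The values fell into clusters, with 11 animals between 564 and 1194 and 4 animals at 2069 (low 7), 2624 (high 2), 2711 (low 2) and 3032 (high 8). Each group held 2 of these 4 animals. CIITA values were whole reads in 2 of 15 libraries, and the CIITA model overlaps DEXI on the opposite strand.

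**Figure D3:**
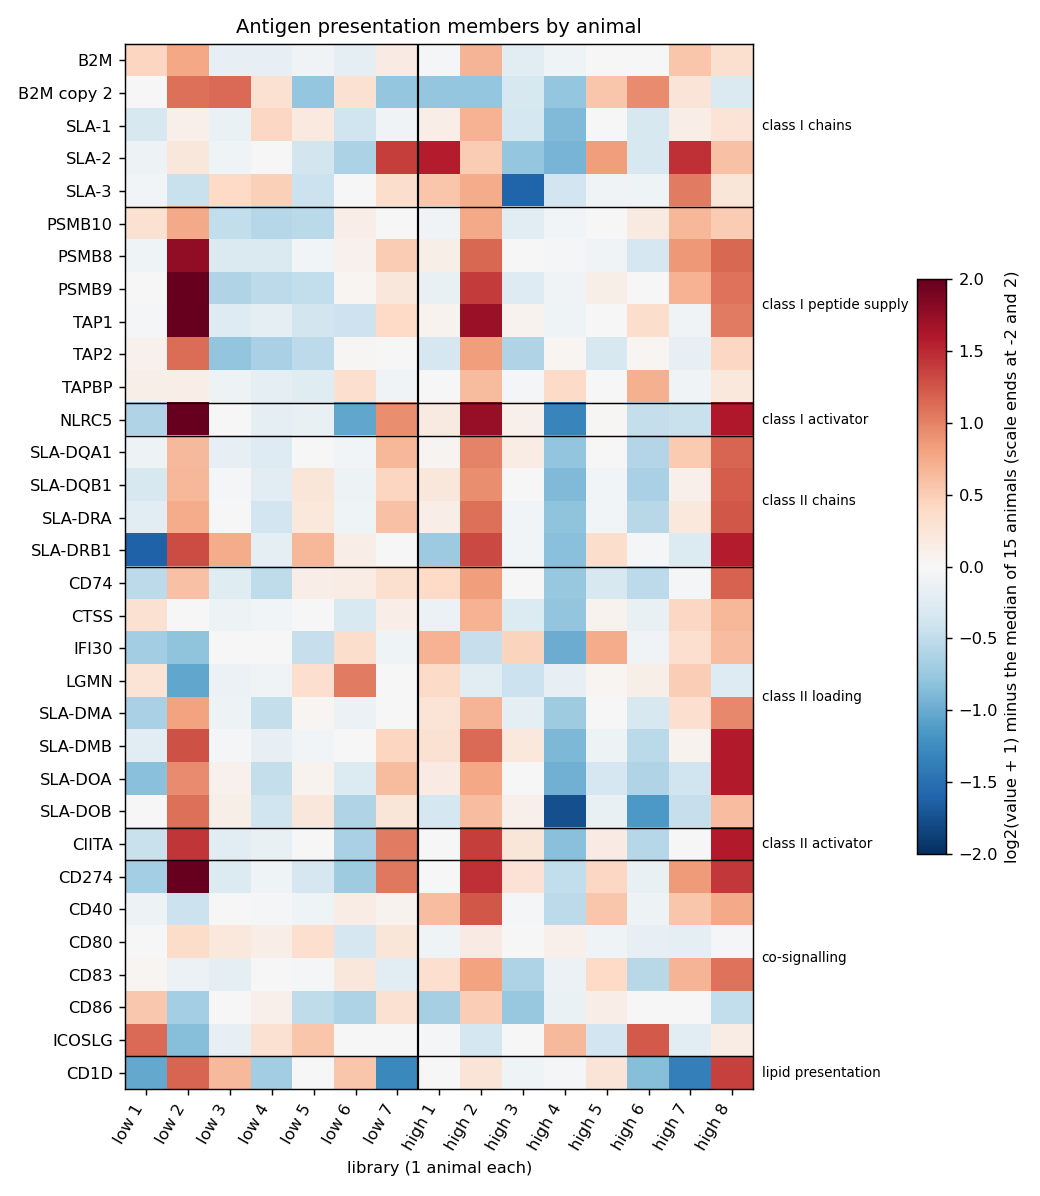
Deviation of log2(value + 1) from the median of the 15 animals, for each gene model (lines of the heat map, by role) and animal (columns, low iCrit left of the vertical line), with the colour scale ending at -2 and 2. Low 2, high 2 and high 8, and less so low 7, are red through TAP1, NLRC5, most class II genes, CIITA and CD274, while high 4 is blue through the class II genes.

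The same 4 animals recurred across genes of both pathways, as the heat map of members by animal shows. They were the 4 highest animals for 10 of 32 members (31.2%), namely TAP1, NLRC5, SLA-DQA1, SLA-DQB1, SLA-DRA, SLA-DMB, SLA-DOA, SLA-DOB, CIITA and CD274. Over all tested gene models the same was true of 107 (0.636%). The 4 animals were themselves picked out by the CIITA values, so this is a description with no test. Low 2 was highest in 5 of 7 genes of class I peptide supply and NLRC5. High 8 was highest in 9 of the 10 class II chains, CD74, DM, DO and CIITA genes. These 10 were set apart from CTSS, IFI30 and LGMN after seeing values, and over all 13 class II genes high 8 was highest in 9. At the other end, high 4 was the lowest animal for 15 of 32 members, for 9 of those 10 class II genes and for 11 of all 13. How often high 4 was lowest over all tested gene models was not computed. The highest animals thus came from both groups, and the animal most often lowest was a high iCrit one.

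The animals did not share all features. Relative to the median of the 15 animals, low 2 stood 6.83-fold high in NLRC5 and 5.09-fold in TAP1, but 2.68-fold in CIITA and 1.67-fold in SLA-DRA. High 8 stood 3.05-fold high in NLRC5, 2.05-fold in TAP1, 3.0-fold in CIITA and 2.36-fold in SLA-DRA. Low 7 stood 2.05-fold high in CIITA and 1.91-fold in NLRC5, but 1.32-fold in TAP1 and 1.17-fold in PSMB9. The balance of class I peptide supply and class II genes thus differed between these animals. High 7 had another profile, with 1.82-fold PSMB8, 1.61-fold PSMB9, 2.75-fold SLA-2 and 2.05-fold SLA-3, but 0.736-fold NLRC5 and a CIITA value of 1010, at the median. That library was also the shallowest, at 23.7 M estimated reads, and the part of depth in its profile was not tested.

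Co-signalling molecules set the outcome of T cell recognition, and they behaved unlike one another. CD274 (PD-L1), an inhibitory ligand, followed NLRC5, with 956 in low 2, 534 in high 2, 520 in high 8 and 405 in low 7, and 352 or less in the other animals. For CD274 the log2 difference was -0.29 ± 0.43 (adjusted p = 0.917 by limma). The CD274 model overlaps PLGRKT and RLN2 on the opposite strand. CD40, which receives help from CD4 T cells on antigen-presenting cells, had the smallest p of all members. It ran from 219 to 328 (median 291) in low and from 206 to 705 (median 433) in high iCrit animals, with means of 286 ± 34.7 and 412 ± 157 (SD, n = 7 and 8). The log2 difference of CD40 was -0.44 ± 0.22, and neither the unadjusted p (0.0612) nor the adjusted p (0.708) of limma passed. Of the 8 high iCrit animals, 5 stood at 433 or more, above every low iCrit animal, and the other 3 stood at 287 or less.

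CD80, a ligand that costimulates through CD28, was narrowest, from 176 to 288 (median 258) in low and from 194 to 250 (median 214) in high iCrit animals. Its log2 difference was 0.17 ± 0.14 (adjusted p = 0.828 by limma), the smallest p among members higher in low iCrit animals. The CD80 model overlaps TIMMDC1 on the opposite strand, and its values were whole reads in 6 of 15 libraries. CD86, the companion ligand of CD80, ran from 495 to 1220 over all animals, with a log2 difference of 0.05 ± 0.22. CD83, a marker of mature dendritic cells, ran from 81.4 to 268, with a log2 difference of -0.29 ± 0.25. ICOSLG, the ligand of ICOS on T cells, was highest in high 6 (2626) and low 1 (2462), and its log2 difference was 0.01 ± 0.28. Low 2, the highest animal for CD274 and CD80, had the lowest ICOSLG value (619).

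CD1D presents lipids to natural killer T cells and lay low, from 26.1 to 147 (median 64.9) in low and from 24.6 to 169 (median 64.5) in high iCrit animals. Its log2 difference was -0.04 ± 0.42 (adjusted p = 0.990 by limma). High 8 and low 2 were highest, at 169 and 147, but low 7 and high 7 were lowest, at 26.1 and 24.6. By spread within groups CD1D (SD 0.87) joined NLRC5 (1.15), CD274 (0.92) and SLA-DRB1 (0.90) as the 4 most variable members. Of the 32 members, 30 had an SD above the median of genes with a mean of at least 50, and 8 had an SD above the 90th percentile.

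Whether members moved together outside the 4 animals was asked within the 11 animals below the gap in CIITA, since no pooled correlation is given over separate clusters. CIITA and NLRC5 correlated with Pearson's r = 0.88 and Spearman's rho = 0.88 (n = 11 animals). The permutation p-values were 3.1e-04 and 7.3e-04, or 0.00806 and 0.019 after Benjamini-Hochberg adjustment over 26 pairs. Without the 2 animals farthest from the CIITA median r was 0.73, and the pair passed in each of the 11 rounds that left out 1 animal. It was the only pair of the 26 that passed by both measures.

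CIITA correlated with the 9 class II genes at r from 0.34 (SLA-DRB1) to 0.78 (SLA-DQB1). By Pearson's r 5 of the 9 pairs passed the permutation test after adjustment over 26 pairs, and by Spearman's rho 0 of 9 did. These 5 were SLA-DQB1 (0.78), SLA-DMB (0.76), SLA-DQA1 (0.74), SLA-DOB (0.74) and SLA-DRA (0.72), with adjusted permutation p from 0.0363 to 0.0413. With 1 animal left out at a time r stayed between 0.65 and 0.87 for SLA-DQB1, 0.60 and 0.89 for SLA-DMB, 0.59 and 0.83 for SLA-DQA1, 0.56 and 0.82 for SLA-DOB and 0.55 and 0.82 for SLA-DRA. Of these 11 rounds, the pair no longer passed in 3 for SLA-DQB1, 4 for SLA-DMB, 6 for SLA-DQA1, 4 for SLA-DOB and 8 for SLA-DRA. The number of all pairs that passed, 7 of 26, became 1 without low 5 or without high 6, 2 without high 4, 3 without high 3 and 4 without low 3, and rose to 10 without low 6. NLRC5 correlated with the 10 class I genes at r from -0.75 to 0.69, and 1 of 10 pairs passed. That pair was TAP2, with r = -0.75 (adjusted permutation p = 0.0363) and rho = -0.69 (adjusted permutation p = 0.146). Across these 11 animals TAP2 thus tended to be lower where NLRC5 was higher, by Pearson's r only. The pair no longer passed in 6 of the 11 rounds that left out 1 animal. In the other 4 animals the highest NLRC5 value came with the highest TAP2 value. SLA-1 had r = 0.69 with NLRC5, which did not pass (adjusted permutation p = 0.0622) and became 0.20 without the 2 farthest animals. All values of an animal share 1 library and its scaling.

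**Figure D4:**
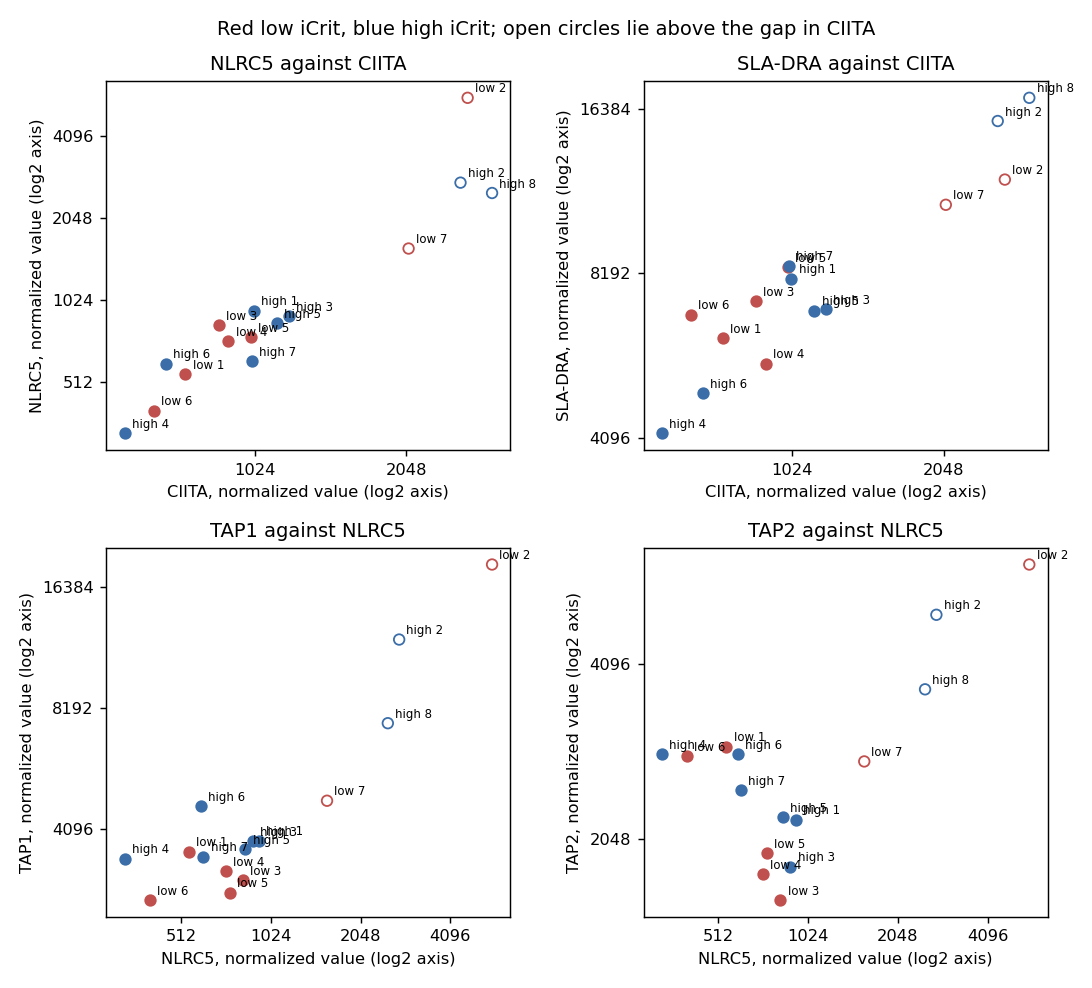
Normalized values of 4 pairs of members per animal on log2 axes (red low, blue high iCrit), with open circles for the 4 animals above the gap in CIITA and filled circles for the other 11. NLRC5 follows CIITA within the 11 animals (r = 0.88). TAP2 tends to be lower where NLRC5 is higher within them (r = -0.75, not passing by Spearman's rho) and is highest in low 2.

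Genes of the same pathways outside the members held no call between the groups. Of 19 tested genes of class I assembly and of the constitutive proteasome, 7 were higher and 12 lower in low iCrit animals and none was called. The smallest unadjusted p belonged to the proteasome subunit PSMB7 (log2 difference -0.31 ± 0.11), the proteasome activator PSME1 (-0.29 ± 0.13) and the proteasome subunit PSMB5 (-0.26 ± 0.12), with adjusted p of 0.672, 0.700 and 0.700 by limma. Of 20 tested genes, mostly of class II regulation and processing, 5 were higher and 15 lower, and none was called. This list also held PDCD1LG2, CD276, VTCN1, CD1E and HVCN1, and SPPL2A was in both lists. There the smallest p belonged to the proton channel HVCN1 (log2 difference -0.60 ± 0.18), the endosomal protease CTSD (-0.34 ± 0.13) and RFXANK (-0.33 ± 0.14), a subunit of the factor that binds class II promoters with CIITA, each with an adjusted p of 0.672 by limma. In these lists 3 of 19 and 3 of 20 genes had an unadjusted p under 0.05, all lower in low iCrit animals, as were 4.43% of all tested gene models. Among the non-classical and further class I genes, SLA-11 was at the floor in all 15 libraries, SLA-6, SLA-7 and SLA-8 had log2 differences between -0.07 and -0.01, and SLA-5 had 0.26 ± 0.34.

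Genes of the interferon-gamma axis were high in the animals that were high in the members, and type I response genes were so in part. GBP1, a guanylate-binding protein induced by interferon-gamma, was 37689 in low 2, 17792 in high 2, 15899 in high 8 and 9682 in low 7, and 3075 or less in the other animals. IRF1, a transcription factor that interferon-gamma induces, was 9779 in low 2, 6424 in high 2, 5523 in high 8 and 3697 in low 7, and 3049 or less elsewhere. Over 17 genes of the interferon-gamma axis the mean log2 deviation from the 15-animal median was 1.79 in high 2, 1.16 in high 8, 1.02 in low 2 and 0.83 in low 7, and 0.43 or less in the others. Over 24 genes of the type I interferon response it was 1.73 in high 2 and 0.95 in low 2 but 0.31 in high 8 and 0.13 in low 7. High 6, at 0.51, stood above both, and was among the 4 highest animals in 17 of the 24 genes, although the 10 class II chain, CD74, DM, DO and CIITA genes averaged -0.55 there. The part of interferon in the members' values was not tested.

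By group, these lists held no called gene. Of the 17 interferon-gamma axis genes 6 were higher and 11 lower in low iCrit animals, at a median of -0.15 (log2), and of the 24 type I response genes 8 were higher and 16 lower, at a median of -0.11. ACOD1, the itaconate-producing enzyme, had the smallest p of the interferon-gamma axis list, with means of 696 ± 609 in low and 3528 ± 2048 in high iCrit animals (SD, n = 7 and 8). Its log2 difference was -3.01 ± 0.76 (adjusted p = 0.672 by limma). ACOD1 did not share the members' order, with 58.9 in low 2 and the highest value, 6712, in high 7.

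Leukocyte markers moved with the members in some of the 4 animals. The summed value of 11 T and natural killer cell markers was 709 to 1448 (median 980) in low and 594 to 2560 (median 936) in high iCrit animals, and all 11 were among the 4 highest values in high 2 and in high 8. Their mean log2 deviation was 1.43 in high 2, 1.08 in high 8 and 0.62 in low 7, but 0.18 in low 2, the animal with the highest NLRC5 and TAP1. Over 17 macrophage and dendritic cell markers it was 1.06 in high 2 and 0.75 in high 8, and 0.24 in both low 2 and low 7. Their summed value was 4111 to 7300 (median 5074) in low and 3498 to 9848 (median 5572) in high iCrit animals. In that sum CD14 alone gave 952 to 3646 over all animals. ITGAX, a dendritic cell integrin, was at the floor in all 15 libraries. High 2 was among the 4 highest animals in 14 of the 17 markers and high 8 in 12. Low 6 was so in 8 markers, low 2 in 7 and low 7 in 6. AIF1, a macrophage marker, had the same 4 animals on top, at 730 in high 8, 547 in high 2, 514 in low 2 and 313 in low 7. SPI1, a myeloid transcription factor, was highest in high 2 (772) and high 8 (531). Other markers had another order, as CD163 was highest in high 2 (1939) but lowest in high 8 (139), and ITGAM was highest in low 6 (627). The macrophage receptor CSF1R was highest in high 8 (1796) and low 6 (1643) and showed no detectable correlation with SLA-DRA within the 11 animals (r = 0.02, adjusted permutation p = 0.973). High 4 had the lowest mean log2 deviation over the T and natural killer cell (-0.57) and the macrophage and dendritic cell markers (-0.50). It was also lowest over 6 endothelial markers (-0.67) and, with high 6, highest over 6 epithelial markers (0.47), where low 2 was lowest (-0.58). The part of cell composition in the members' values was not tested.

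Of the B and plasma cell markers, MS4A1 was at 19.0 or less and PAX5 at 9.80 or less in every animal, while the B cell receptor component CD79B ran from 50.0 to 133, CD22 from 6.15 to 100 and JCHAIN, the joining chain of secreted antibodies, from 740 to 3825. The sum of 9 B and plasma cell markers was 981 to 4284 (median 2414) in low and 1444 to 4743 (median 2105) in high iCrit animals. That sum was mostly JCHAIN, as in low 1 (740 of 981) and high 4 (3825 of 4743), and says little of the other markers. The part of leukocyte number in the members' values was not tested. Over 6 trophoblast markers the mean log2 deviation was 3.53 in high 8, with a summed value of 10668 that consisted mostly of PAG6 (7446) and IFNG (2803), the interferon-gamma gene that pig trophoblast expresses. Of the 6, PAG6, IFNG and CYP17A1 were highest in high 8, whereas PAG1 was highest in low 7 (279), CYP19A1 in high 7 (96.8) and IFN-DELTA-1 in low 2 (42.1). In the other 3 animals high in CIITA, IFNG was 122 (low 7), 35.8 (low 2) and 19.0 (high 2). Values of 203 in low 4, 139 in low 6 and 123 in high 3 came with CIITA of 907, 645 and 1194, so IFNG and CIITA did not share an order. The part of conceptus tissue in the class II values of high 8 was not tested.

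**Figure D5:**
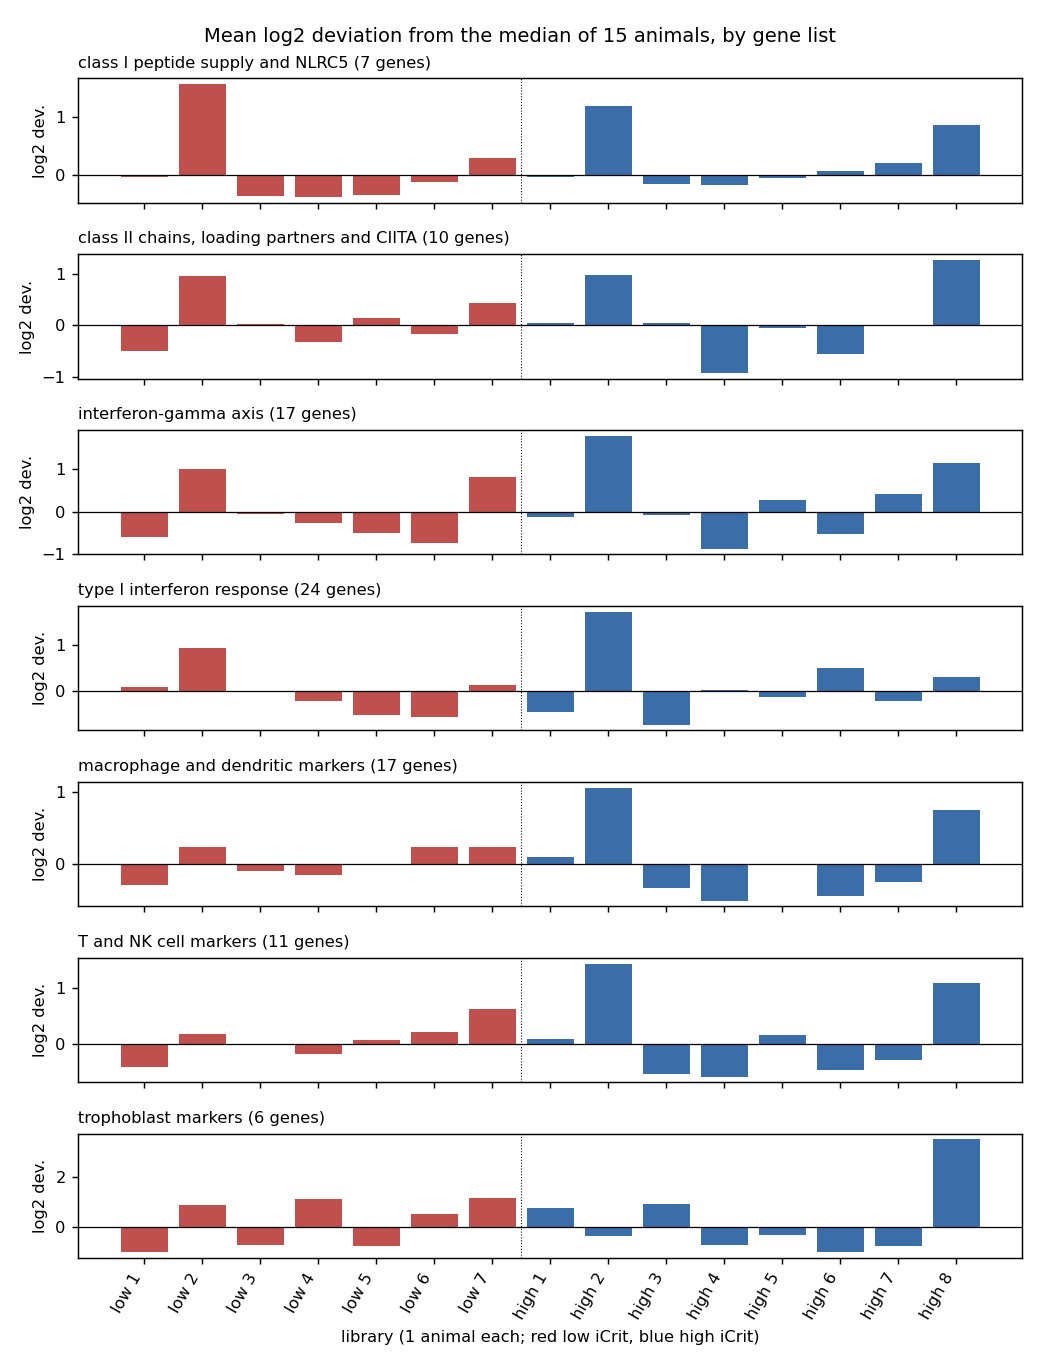
Mean log2 deviation from the median of the 15 animals for 7 gene lists, 1 bar per animal (red low, blue high iCrit), each panel on its own scale. The class I peptide supply and class II panels peak in low 2, high 2 and high 8, the T and natural killer cell panel in high 2 and high 8 with 0.18 in low 2, and the trophoblast panel in high 8.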

How the data were processed

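RNA libraries of poly(A)-selected endometrial mRNA were sequenced as paired reads on a HiSeq instrument, per the labels' protocols. The authors deposited 1 table of normalized expression values, treated here as signal: linear values with a floor of 1. The sources used here give no aligner, counting rule, genome build or scaling. Coordinates equalled those of Sscrofa11.1 for 27579 of 28224 gene models (97.7%), and those of B2M, SLA-3, SLA-DRA, SLA-DRB1 and PSMB9 are printed, where they are, as deposited. No sample column was unmapped (0).

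In each library 89.5% to 91.9% of low values were whole multiples, within 0.05 steps, of the worth of 1 read. That gave the depth estimate, but read counts were not rebuilt. Errors given with log2 differences are the standard errors of limma, and those given with means are SDs between animals.

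Values were tested as log2(value + 1), a scale that understates changes of low genes, for 16819 gene models above 1 in at least 7 libraries. The test was limma (3.58.1, R 4.3.3) of the low against the high group with its intensity trend and no covariate, at a threshold of 0.05 after Benjamini-Hochberg adjustment. Correlations used log2 values and 100000 permutations (two-sided, scipy 1.17.1). Scripts were tested on simulated data. Alternatives were another pseudocount (0 or 10), filter, scaling, weighting, depth covariate, exact permutation, and left-out animals. Replicate numbers follow record order. Each animal is 1 sample.

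The members and lists were chosen with earlier results of these data known. Full values are given for the surface chains, both activators, CD74, TAP1, PSMB8 and PSMB9, the 4 smallest p in each direction and the 4 largest SDs, and further lists by their 3 smallest p, where a result turns on them. The class II group without CTSS, IFI30 and LGMN was formed after seeing values. A few listed symbols (MR1, CD1A, GBP5, IFIT5, PAG2, IL1B2) were not analysed here, nor were the small-RNA libraries. Some results are not reported here. Protein and promoter sequences are not used here.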

Additional observations from a re-analysis of the deposited data

Results flagged for a closer look

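Among 64 combinations of gene model and group, 5 had an end animal far from the rest of its group on the log2 scale, where chance alone sets apart about 1 in 20 groups. All 5 lay in the low iCrit group. In animal 2 these were TAP1 at 18636, PSMB9 at 3274, PSMB8 at 4873 and SLA-DMB at 2290, and their gaps to the next animal took 0.70, 0.68, 0.61 and 0.57 of the group's range. In animal 7 it was SLA-2 at 123512, with a gap of 0.58 of the range. Genes in 1 animal share a library, so the 4 values of animal 2 are not independent.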

How the results depend on the processing

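No gene was called under any setting run (0 of all tested in each). For the exact permutation that count says little. With 6435 splits of the animals, its smallest possible p lies above what a few genes among 16819 would need. Among the 24 members followed, the lowest adjusted p was 0.39 for CD40, by limma with library weights. Of these 24 members, 10 kept their direction under all 27 alternatives. Members with an unadjusted p under 0.05 numbered 3 with library weights, 1 with estimated reads as a covariate and 2 without low 2, low 7, high 2 and high 8 (chosen after seeing the data), and 0 to 2 when 1 animal was left out. The signs of the following small log2 differences turned, and the cause was not tested. With quantile normalization B2M was 0.04, SLA-3 0.16 and SLA-DQB1 0.01, and with median centring SLA-3 was 0.01, SLA-DQB1 0.01 and SLA-DRB1 0.00. With library weights SLA-3 was 0.29 and NLRC5 -0.18. With estimated reads as a covariate B2M was 0.10, SLA-3 0.02, PSMB8 0.09, SLA-DQA1 0.04, SLA-DQB1 0.06, SLA-DRA 0.08 and CIITA 0.01. Without low 2, high 7 and high 8, SLA-3 was 0.26, NLRC5 -0.22, SLA-DQA1 0.04, SLA-DQB1 0.08 and SLA-DRA 0.06. Without low 2, low 7, high 2 and high 8, SLA-3 was 0.16, NLRC5 -0.08, SLA-DQB1 0.13, SLA-DRA 0.09, SLA-DRB1 0.21, CD74 0.01 and CD1D 0.24.

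Leaving out 1 animal at a time gave log2 differences of -0.16 to 0.03 for B2M, -0.11 to 0.12 for SLA-1, -0.25 to 0.12 for SLA-3, -0.53 to 0.02 for TAP1, -0.35 to 0.29 for NLRC5, -0.22 to 0.06 for SLA-DQA1, -0.15 to 0.15 for SLA-DQB1, -0.17 to 0.12 for SLA-DRA, -0.21 to 0.28 for SLA-DRB1, -0.23 to 0.04 for CD74, -0.10 to 0.25 for LGMN, -0.32 to 0.09 for CIITA and -0.25 to 0.17 for CD1D. The medians of class I and class II members were 0.01 and 0.02 with estimated reads as a covariate, -0.22 and -0.15 with library weights, -0.19 and 0.03 without low 2, high 7 and high 8, and -0.16 and 0.07 without low 2, low 7, high 2 and high 8. Leaving out 1 animal gave medians of -0.32 to 0.02 for class I and -0.19 to 0.09 for class II members, and 1 to 10 of 26 correlations past the threshold. The correlations that changed sign were near 0. That of NLRC5 and SLA-3 was 0.05 with quantile normalization, 0.02 without low 2, high 7 and high 8, and -0.18 to 0.39 with 1 animal left out. That of CSF1R and SLA-DRA was -0.00 with quantile normalization, -0.04 for deviations from the group means and -0.22 to 0.28 with 1 animal left out. That of SLA-DRA and B2M was -0.09 without low 2, high 7 and high 8, and -0.09 to 0.30 with 1 animal left out. With 1 animal left out NLRC5 and TAP1 gave -0.06 to 0.33 and CSF1R and CIITA -0.50 to 0.04.

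No paired analysis was possible because the replicate numbers follow record order and pair no animals. Depth limits what can be said of genes near the floor, such as the second B2M model, and the groups of 7 and 8 animals leave wide intervals for the most variable members.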
